A study of Mus musculus with 6 samples.

Results

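The genes described here are the heat shock proteins of mouse Sertoli cells and the DNAJ cochaperones that work with them, together with the BAG exchange factors and the heat shock factors. They were chosen by symbol among protein-coding genes, as the *Hspa*, *Hspb*, *Hspd*, *Hspe*, *Hsph* and *Hsp90* genes, the numbered *Dnaja*, *Dnajb* and *Dnajc* genes, the numbered *Hsf* genes and *Bag1* to *Bag6*. Of 28262 genes in the table, 85 matched, and 84 remained after *Hspbap1*, a binding partner named after a small heat shock protein, was left out. The rule is on names and reads no measured value, although it was written with earlier results of these data known. RNA-seq was made from total RNA of Sertoli cells purified from the testes of 20-day-old C57BL/6 mice, with 3 libraries from Pa1F/F cells (genotype PA1flox/flox, the control, floxed alleles without Cre) and 3 from Amh-pa1-/- cells (genotype PA1-/-). In the latter the floxed *Pa1* alleles were deleted by a Cre recombinase under the *Amh* promoter, which is active in Sertoli cells. All cells were otherwise untreated and were kept in culture at 34 °C before RNA was taken, so both genotypes had gone through enzymatic dispersal of the testis and plating. The reads of *Pa1* were not analysed here, and the genotype of a library rests on its label. The comparison asked how the messages of the protein folding machinery differed between Sertoli cells with and without PA1, a nuclear cofactor of histone methyltransferase complexes.

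HSP70 proteins bind exposed hydrophobic stretches of a client protein and hold or release it through a cycle of ATP hydrolysis and nucleotide exchange. A J-domain protein (DNAJ) delivers the client and triggers hydrolysis, and an exchange factor such as a BAG or an HSP110 protein opens the cycle again. HSP90 takes over clients that need late folding steps, among them steroid receptors and kinases, small heat shock proteins keep unfolded proteins from clumping, and the HSP60 and HSP10 chaperonin folds proteins inside mitochondria. Heat shock factor 1 (HSF1) switches on many of these genes under stress. In the testis several members have forms that are made mainly in germ cells, such as *Hspa1l*, *Hspa2*, *Dnajb3*, *Dnajb7* and *Dnajb8*.

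Total counts on genes lay between 13203757 and 16231443 per library. Values are given as normalized counts, for which each count was divided by the TMM-scaled size of its library and rescaled to the average library. The libraries of a genotype were unevenly spaced. A chi-square statistic over genes, which is near 1 per gene when a pair differs by sampling noise alone, was 2.23 for Pa1F/F replicates 1 and 3 and 1.67 for Amh-pa1-/- replicates 1 and 2, against 18.5 to 31.1 for the other pairs within a genotype. Neither close pair agreed within sampling noise, and all 6 libraries entered the test as labelled. The labels do not say whether replicates came from separate animals or cultures, so p-values measure the spread between these libraries, which may be technical. Amh-pa1-/- replicate 3 stood apart from its group. Its *Amh* value was 365 normalized counts, against 43.9 and 48.4 in replicates 1 and 2, and its summed immediate early genes reached 31192. Without it, 30 members passed the test described next, 25 of them shared with the 26 that passed with all libraries, and 43.1% of all tested genes passed. Without Pa1F/F replicate 1 or Amh-pa1-/- replicate 1 the number was 15 or 17 (22.7% and 24.7% of all tested genes), and with the counts of each close pair summed it was 4 (8.66%).

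Between the genotypes, 73 of the 84 members had enough counts to be tested, and 26 of them (35.6%) differed at an adjusted p under 0.05 by edgeR's quasi-likelihood test, adjusted over all 14919 tested genes. Among all tested genes 35.3% passed, so the members' share was that of the background. Expression was higher in Amh-pa1-/- cells for 14 members (19.2%, against 18.2% of all tested genes) and lower for 12 (16.4%, against 17.1%). Only *Hsf4* among the tested members also changed by 1 or more on the log2 scale, which is 1.37% of the members as compared with 12.0% of all tested genes. Members had a median log2 fold change of -0.02 and a median size of change of 0.20, while over all tested genes these values were 0.0020 and 0.30. For 38 members (52.1%) the libraries of the genotypes did not overlap, which was also the share among all tested genes, 52.4%. All 26 called members were among these 38, and 16 of the 26 changed by less than 0.5 on the log2 scale. Bulk RNA cannot tell fewer cells that express a gene from less RNA per cell. Apart from the members picked by rule for their size of change, abundance or class, the members named below were chosen after their values were seen, most of them because they passed the test or because their libraries did not overlap.

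**Figure D1:**
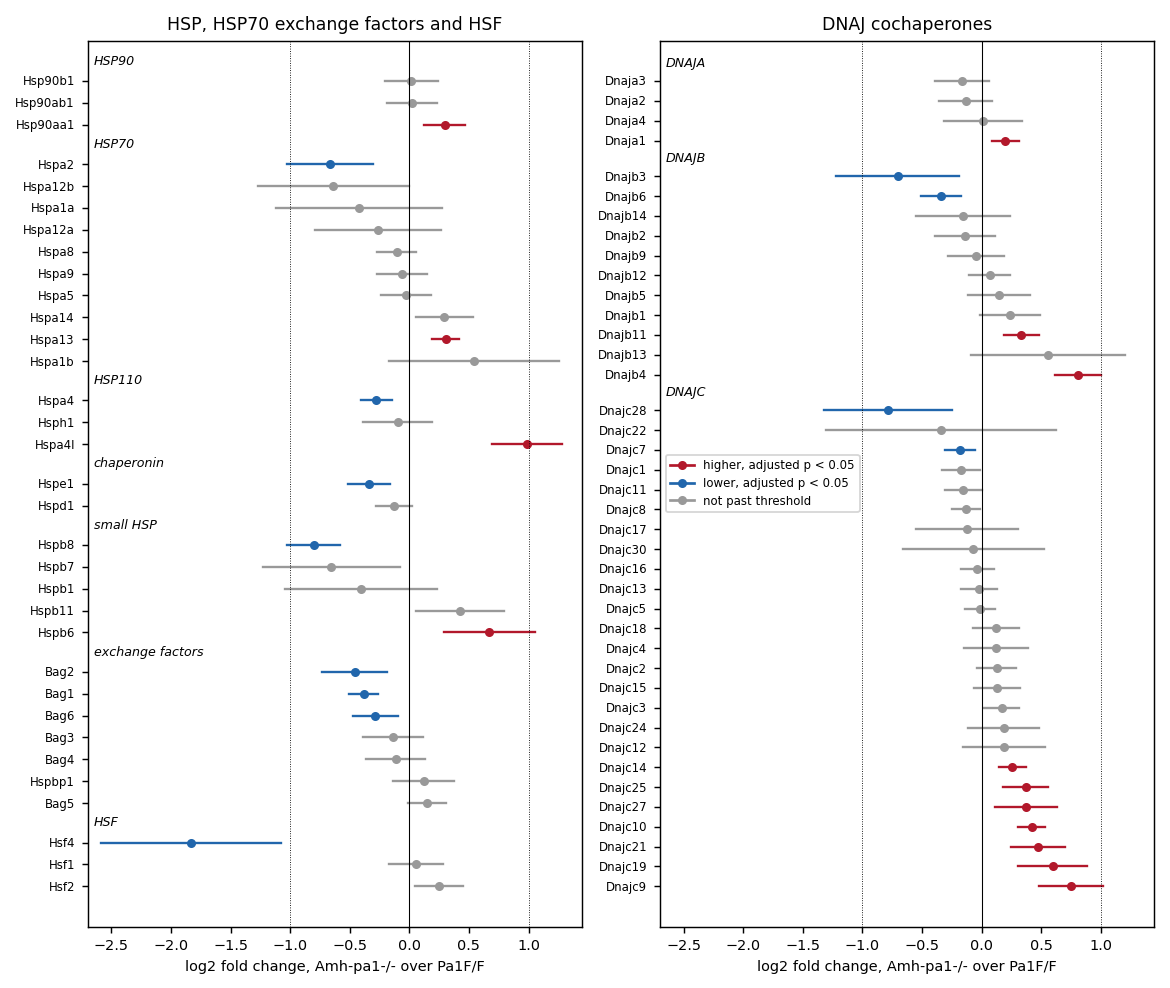
Log2 fold change of Amh-pa1-/- over Pa1F/F (x axis) for the 73 tested members, sorted within each class, with points for the estimate and bars for its 95% confidence interval. Red and blue points passed an adjusted p under 0.05, and only *Hsf4* lies beyond the dotted lines at a log2 fold change of 1 in size, with *Hspa4l* at 0.99.

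HSP90 was represented by *Hsp90aa1*, the inducible cytosolic form, *Hsp90ab1*, the constitutive cytosolic form, and *Hsp90b1*, the form of the endoplasmic reticulum known as GRP94. *Hsp90aa1* was higher in Amh-pa1-/- cells and the others did not pass the test. Normalized counts of *Hsp90aa1* were 10272, 10072 and 10382 in the Pa1F/F libraries and 12889, 13261 and 11586 in the Amh-pa1-/- libraries, listed here and throughout as replicate 1, replicate 2 and replicate 3. Every Amh-pa1-/- library lay above every Pa1F/F library, and the log2 fold change was 0.30 ± 0.07 (SE), adjusted p = 0.0200 by edgeR. Leaving out Pa1F/F replicate 1 or 3 or Amh-pa1-/- replicate 1 or 2 ended the call, with adjusted p between 0.0612 and 0.0710, and it was kept without either of the other libraries. *Hsp90ab1* was counted at 25519 ± 312 (SD, n = 3) in Pa1F/F and 25941 ± 2053 in Amh-pa1-/- cells, a log2 difference of 0.02 with a 95% interval from -0.18 to 0.23. *Hsp90b1* was counted at 5521 ± 287 and 5582 ± 646, with an interval from -0.20 to 0.24. For both genes the libraries of the genotypes overlapped.

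Of the 11 HSP70 genes, 10 were tested, and 1 was higher and 1 was lower in Amh-pa1-/- cells (10% each, against 18.2% and 17.1% of all tested genes). The major housekeeping forms did not pass the test. *Hspa8*, the constitutive cytosolic HSC70, had 25132, 24373 and 24924 normalized counts in Pa1F/F libraries and 23194, 23060.5 and 22883 in Amh-pa1-/- libraries. All Amh-pa1-/- libraries were below all Pa1F/F libraries, but the log2 fold change was only -0.11 (95% interval -0.27 to 0.06, adjusted p = 0.274 by edgeR). *Hspa5*, the endoplasmic reticulum form BiP, differed by -0.03 (interval -0.24 to 0.18), and *Hspa9*, the mitochondrial form mortalin, by -0.06 (interval -0.27 to 0.14). The libraries overlapped for both. *Hspa13*, an atypical HSP70 of the endoplasmic reticulum also called STCH, was at 1303, 1359 and 1395 in Pa1F/F libraries and at 1672, 1663 and 1672 in Amh-pa1-/- libraries. The Amh-pa1-/- libraries stood together above the control libraries, with a log2 fold change of 0.30 ± 0.05 (SE, adjusted p = 0.00433 by edgeR).

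*Hspa2*, which is needed in spermatocytes and is also present elsewhere, was lower in Amh-pa1-/- cells. It was counted at 690.5, 533 and 675 in Pa1F/F libraries and at 352, 367 and 477 in Amh-pa1-/- libraries. The genotypes did not overlap, although Pa1F/F replicate 2 and Amh-pa1-/- replicate 3 came close to each other, and the log2 fold change was -0.67 ± 0.15 (SE, adjusted p = 0.0157 by edgeR). Leaving out Pa1F/F replicate 1 or 3 or Amh-pa1-/- replicate 1 or 2 ended the call, with adjusted p between 0.0560 and 0.0641. Other spermatocyte markers did not pass the test. Of these, none of the 3 tested of 10 listed passed, their sum was 49.8 to 70.7 normalized counts in Pa1F/F and 58.6 to 133 in Amh-pa1-/- libraries, and *Spo11*, *Piwil1* and *Ldhc* had at most 3 counts in any library. Of 10 listed spermatogonia markers, 4 were tested and 3 of these were lower (*Gfra1*, *Kit* and *Ddx4*), but they were low genes, *Kit* and *Ddx4* met the filter on low values through the Pa1F/F libraries, and the untested *Dazl* and *Nanos3* had higher means in Amh-pa1-/- cells (10.6 and 20.2 for *Dazl*, 3.88 and 8.24 for *Nanos3*), each set by 1 library. The part of germ cells in the *Hspa2* difference was not tested.

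The heat-inducible copies *Hspa1a* and *Hspa1b* lie side by side on chromosome 17 and are almost identical, so the division of reads between them is uncertain. *Hspa1a* was at 42.6, 52.3 and 59.8 in Pa1F/F and 24.4, 41.7 and 49.1 in Amh-pa1-/- libraries, and *Hspa1b* at 123, 157 and 127 and at 141, 153 and 298. The genotypes overlapped for both, and the highest *Hspa1b* value belonged to Amh-pa1-/- replicate 3, the library with the highest immediate early genes. Neither passed the test (adjusted p = 0.300 and 0.205 by edgeR). *Hspa14*, which works at the ribosome, and *Hspa12b*, an endothelial form, had adjusted p of 0.0598 and 0.109 by edgeR, with log2 differences of 0.29 and -0.64 and no overlap between the genotypes.

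Of the 3 HSP110 genes, distant HSP70 relatives that act as exchange factors, 1 was higher, 1 was lower and 1 did not pass the test. *Hspa4l* (chr3:40744495-40796103 in GRCm38), also known as APG-1 and abundant in testis, was higher in Amh-pa1-/- cells, with 843, 717 and 906 normalized counts in Pa1F/F and 1808, 1695 and 1399 in Amh-pa1-/- libraries. The lowest Amh-pa1-/- library was well above the highest Pa1F/F library. The log2 fold change was 0.99 ± 0.12 (SE), a 1.99-fold rise, with adjusted p = 0.00166 by edgeR. *Hspa4*, the broadly expressed APG-2, fell from 4879 ± 169 to 4025 ± 136 (SD, n = 3 each). Its libraries did not overlap, and the log2 fold change was -0.28 ± 0.06 (SE, adjusted p = 0.00930 by edgeR, or 0.0514 without Pa1F/F replicate 1). *Hsph1*, or HSP105, was at 497 ± 61.0 and 464 ± 47.9, with overlapping libraries and a log2 difference of -0.10 (95% interval -0.39 to 0.19).

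Mitochondrial HSP60 and HSP10 are encoded by *Hspd1* and *Hspe1*, neighbours on chromosome 1 that are transcribed away from each other from a shared promoter. *Hspe1* was at 1127, 1224 and 1100.2 in Pa1F/F and 957, 923 and 846 in Amh-pa1-/- libraries, and *Hspd1* at 3562, 3691 and 3669 and at 3485, 3442 and 3058. All Amh-pa1-/- libraries were below all Pa1F/F libraries for both genes. Only *Hspe1* passed the test, with a log2 fold change of -0.34 ± 0.07 (SE, adjusted p = 0.0125 by edgeR), against -0.13 ± 0.06 (adjusted p = 0.163) for *Hspd1*, and whether the pair differed from each other was not tested. The genes overlap by 112 bases on opposite strands, and reads there cannot be assigned where strand was not used.

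Promoter windows from RefSeq (GRCm38.p6), 250 bases before to 50 bases after each gene start, were at hand for 68 of the 84 members. No window was matched for *Hsp90aa1*, *Hsp90ab1*, *Hspa13*, *Hspa8*, *Hspa9*, *Hspb2*, *Bag4*, *Dnajc11*, *Dnajc12*, *Dnajc18*, *Dnajc2*, *Dnajc22*, *Dnajc30*, *Dnajc5*, *Hsf1* and *Hsf4*. The heat shock element, the site that HSF1 recognizes, was searched on both strands as GAANNTTC followed by any 2 bases and GAA, or as TTCNNGAA followed by any 2 bases and TTC. It was found for 4 of the 68 members (5.88%), *Hspd1*, *Hspe1*, *Hsph1* and *Dnajb6*, and for 179 of 27025 genes with a window (0.662%). Stretches of *Hspe1* and *Dnajb6*, which passed the test, are printed here with the element in capitals. The first lies at chr1:55088053-55088082 on the plus strand, at positions -89 to -72 from the *Hspe1* start, and the same element is read from the other strand at positions -144 to -127 from the *Hspd1* start. The other lies at chr5:29735844-29735872 on the plus strand, at positions -46 to -34 from one start of *Dnajb6* and -127 to -115 from another.

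Hspe1: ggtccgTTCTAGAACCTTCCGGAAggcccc

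Dnajb6: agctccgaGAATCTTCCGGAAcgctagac

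Of the 4 members with the element, *Hspe1* and *Dnajb6* were lower in Amh-pa1-/- cells, and *Hspd1* and *Hsph1* did not pass the test. A match is a description of the letters in the window, and a window without it says nothing of a factor.

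Of the 8 small heat shock proteins, 5 were tested, and 1 was higher and 1 was lower (20% each, against 18.2% and 17.1% of all tested genes). *Hspb8* (chr5:116408491-116422864), which works with BAG3 in clearing aggregates, was at 2107, 2302 and 1876 in Pa1F/F and 1145, 1143 and 1314 in Amh-pa1-/- libraries. The genotypes were well apart, and the log2 fold change was -0.80 ± 0.09 (SE, a 1.74-fold fall, adjusted p = 0.00132 by edgeR). *Hspb6*, or HSP20, a muscle form, was at 93.3, 102 and 110.1 in Pa1F/F and 137, 159 and 190.4 in Amh-pa1-/- libraries. The difference was 0.67 ± 0.16 (SE) on the log2 scale, with adjusted p = 0.0178 by edgeR, or 0.0694 without Pa1F/F replicate 1. In the same libraries *Acta2*, a smooth muscle actin that marks peritubular myoid cells, was at 2968 ± 378 and 13194 ± 1908, and 2 of 5 tested genes of the myoid list, *Acta2* and *Mylk*, were higher. Other myoid markers were not raised in every Amh-pa1-/- library. *Myh11* was at 649, 481 and 580.0 in Pa1F/F and 216, 164 and 1605 in Amh-pa1-/- libraries, and *Des* at 139, 93.0 and 113 and at 43.9, 46.2 and 485, each below the controls in replicates 1 and 2 and above them in replicate 3. The part of myoid cells in the *Hspb6* difference was not tested.

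*Hspb1*, or HSP27, the most counted small heat shock protein, did not differ by the test. It was at 4020, 2111 and 2129 in Pa1F/F and 1917, 1841 and 2485 in Amh-pa1-/- libraries. The genotypes overlapped, and Pa1F/F replicate 1 alone carried the log2 difference of -0.40 (95% interval -1.04 to 0.23), which was -0.02 without that library. *Hspb7*, a heart and muscle form, was at 219, 120.1 and 195 and at 102, 105 and 132, overlapping between Pa1F/F replicate 2 and Amh-pa1-/- replicate 3. Its log2 difference of -0.65 had an adjusted p of 0.0763 by edgeR, and of 0.0131 without the first of these libraries and 0.0454 without the second. *Hspb11*, a component of intraflagellar transport, differed by 0.43 (adjusted p = 0.0721 by edgeR) with no overlap.

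**Figure D2:**
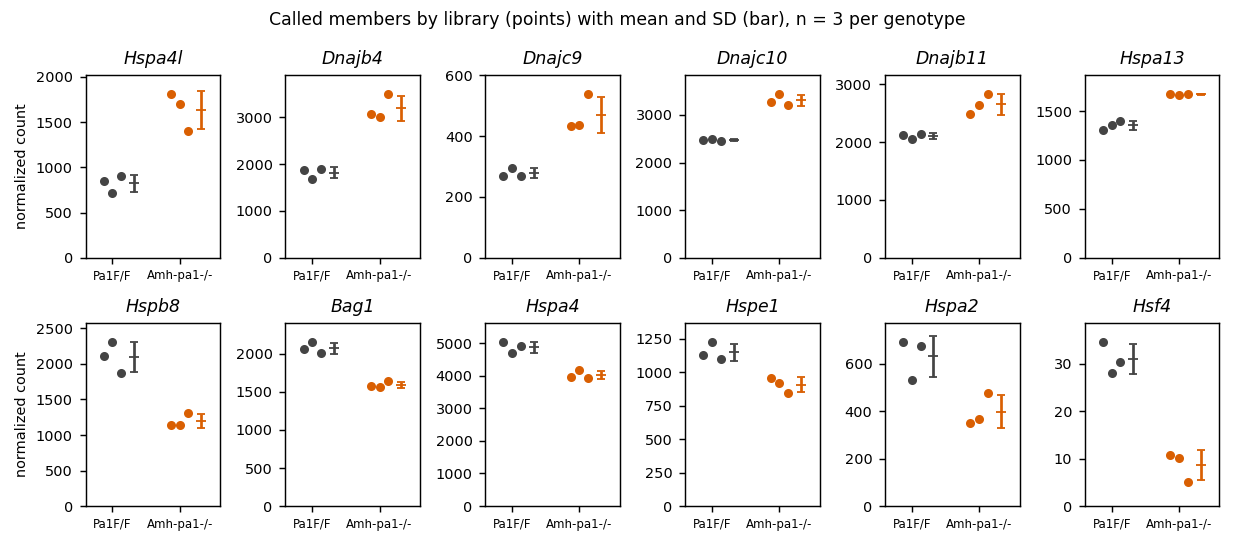
Normalized count (y axis, from 0) in each library for 12 called members, 6 higher (upper row) and 6 lower (lower row) in Amh-pa1-/- cells. Points are libraries and bars are mean and SD over 3 libraries of a genotype, and in every panel the genotypes do not overlap. The panels, named above each, were chosen after the values were seen.

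The exchange factors of HSP70 outside the HSP110 class were *Bag1* to *Bag6* and *Hspbp1*. Of these 7, 3 were lower in Amh-pa1-/- cells (42.9%, against 17.1% of all tested genes) and none was higher. Among the HSP110 exchange factors, described above, 1 was higher and 1 was lower. Whether either class differed from other genes was not tested. *Bag1*, which links HSP70 to the proteasome and to survival signalling, was at 2068, 2149 and 2006 in Pa1F/F and 1574, 1564 and 1640.2 in Amh-pa1-/- libraries. The groups were tight and apart, with a log2 fold change of -0.38 ± 0.05 (SE, adjusted p = 0.00211 by edgeR). *Bag2*, an inhibitor of the ubiquitin ligase CHIP, fell from 848 ± 84.2 to 617 ± 74.8, and *Bag6*, which escorts tail-anchored and misfolded proteins and is needed for meiosis in germ cells, from 6242 ± 455 to 5119 ± 334 (SD, n = 3 each). Both had separate libraries, with log2 fold changes of -0.46 ± 0.11 and -0.29 ± 0.08 (SE, adjusted p = 0.0209 and 0.0298 by edgeR). The *Bag2* call was lost without Pa1F/F replicate 1 or 3 or Amh-pa1-/- replicate 1 or 2 (adjusted p 0.0641 to 0.0785), and the *Bag6* call without any library other than Amh-pa1-/- replicate 3 (0.0586 to 0.0704). *Bag3*, the stress-inducible partner of HSPB8, was at 1055 ± 43.3 and 960.0 ± 138, a log2 difference of -0.14 (adjusted p = 0.356 by edgeR, or 0.0217 without Amh-pa1-/- replicate 3). *Bag4* differed by -0.11, *Bag5* by 0.15 and *Hspbp1* by 0.12, none past the test.

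J-domain proteins made up 44 of the members, and 33 of them carried the Pfam DnaJ domain in the annotation of the table. Of 40 tested, 10 were higher (25%) and 4 were lower (10%) in Amh-pa1-/- cells, with a median log2 fold change of 0.09. Over all tested genes 18.2% were higher and 17.1% lower. Whether the DNAJ genes differed from other genes was not tested.

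Among the 4 DNAJA genes, which resemble bacterial DnaJ, *Dnaja1* was higher. It was at 3619, 3742 and 3674 in Pa1F/F and 4219.8, 4236 and 4226 in Amh-pa1-/- libraries. The groups were tight and apart, and the log2 fold change was 0.20 ± 0.05 (SE, adjusted p = 0.0161 by edgeR, or 0.0541 to 0.0719 without Pa1F/F replicate 1 or 3 or Amh-pa1-/- replicate 1). *Dnaja1* overlaps *Smu1* on the opposite strand by 608 bases. *Dnaja2*, a cytosolic partner of HSC70, *Dnaja3*, the mitochondrial form TID1, and *Dnaja4* differed by -0.13, -0.17 and 0.01 on the log2 scale, with overlapping libraries.

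Of the 13 DNAJB genes, 11 were tested, and 2 were higher and 2 were lower (18.2% each, against 18.2% and 17.1% of all tested genes). *Dnajb4* (chr3:152178511-152210302), a cytosolic partner of HSP70 close to *Dnajb1*, was at 1884, 1679.9 and 1898 in Pa1F/F and 3078, 3005 and 3496 in Amh-pa1-/- libraries. It rose 1.75-fold, a log2 fold change of 0.81 ± 0.08 (SE), and had the smallest adjusted p of all members, 0.000731 by edgeR. The lowest Amh-pa1-/- library lay far above the highest control library. *Dnajb1*, or HSP40, the stress-inducible relative, was at 1148, 1044 and 1147 and at 1196, 1212 and 1529. Its Amh-pa1-/- libraries were all above the controls, but the log2 difference of 0.24 (95% interval -0.02 to 0.49) did not pass the test. *Dnajb11*, or ERdj3, which binds BiP clients in the endoplasmic reticulum, rose from 2103 ± 49.7 to 2648 ± 175 (SD, n = 3 each), by 0.33 ± 0.06 on the log2 scale (SE, adjusted p = 0.00711 by edgeR).

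*Dnajb6*, a suppressor of protein aggregation, was at 2571, 2502 and 2596 in Pa1F/F and 2133, 2098 and 1818 in Amh-pa1-/- libraries. The genotypes were apart, and the log2 fold change was -0.34 ± 0.07 (SE, adjusted p = 0.0106 by edgeR). *Dnajb3*, a testis form, was at 48.9, 35.8 and 39.9 and at 22.5, 25.9 and 28.1, with a log2 fold change of -0.71 ± 0.22 (SE, adjusted p = 0.0440 by edgeR). The whole of *Dnajb3* lies within *Ugt1a7c* on the opposite strand, whose counts were 194, 190 and 184 in Pa1F/F and 49, 50 and 41 in Amh-pa1-/- libraries. Reads of the 2 genes cannot be told apart where strand was not used, and leaving out any library other than Amh-pa1-/- replicate 3 ended the *Dnajb3* call (adjusted p 0.0558 to 0.156). It was also lost with library size alone, limma-voom, DESeq2's Wald test and no filter on low counts (0.0505 to 0.111). *Dnajb2*, *Dnajb5*, *Dnajb9*, *Dnajb12*, *Dnajb13* and *Dnajb14* lay between -0.16 and 0.56, all with overlapping libraries.

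Of the 27 DNAJC genes, the most varied class, 25 were tested, and 7 were higher (28.0%, against 18.2% of all tested genes) and 2 were lower (8.0%, against 17.1%) in Amh-pa1-/- cells. *Dnajc9* (chr14:20384638-20388910), a histone H3 and H4 chaperone that recruits HSP70, was at 269, 296 and 269.5 in Pa1F/F and 432, 436 and 538 in Amh-pa1-/- libraries. The genotypes were apart, with a log2 fold change of 0.75 ± 0.11 (SE, a 1.68-fold rise, adjusted p = 0.00336 by edgeR). *Dnajc10* (chr2:80315466-80354043), or ERdj5, a reductase of the endoplasmic reticulum, was at 2471, 2496 and 2454 and at 3277, 3437 and 3215. The Pa1F/F libraries lay close together and the genotypes did not overlap, with a log2 fold change of 0.42 ± 0.05 (SE, adjusted p = 0.00127 by edgeR). *Dnajc14*, known for its role in receptor export from the endoplasmic reticulum, rose by 0.26 ± 0.05 (SE, adjusted p = 0.00727 by edgeR), from 1196 ± 10.8 to 1428 ± 24.5. It overlaps *Sarnp* on the same strand and *Ormdl2* on the opposite strand, so its value is less certain.

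*Dnajc19*, a part of the import machinery at the mitochondrial inner membrane, was at 323, 325 and 289 in Pa1F/F and 522, 495 and 399.8 in Amh-pa1-/- libraries. It did not overlap and rose by 0.60 ± 0.12 on the log2 scale (SE, adjusted p = 0.0100 by edgeR), while most of its locus lies opposite *Fxr1*. *Dnajc21*, which acts in ribosome assembly, *Dnajc25* and *Dnajc27* rose by 0.47, 0.37 and 0.38 on the log2 scale (adjusted p = 0.00939, 0.0123 and 0.0356 by edgeR), and the *Dnajc27* call was lost without any library other than Amh-pa1-/- replicate 3 (0.0538 to 0.1003). *Dnajc28*, a J-domain protein of poorly known role, was at 127, 107 and 127 in Pa1F/F and 58.6, 56.3 and 93.2 in Amh-pa1-/- libraries. The fall of 0.79 ± 0.23 on the log2 scale (SE, adjusted p = 0.0341 by edgeR) was called with all libraries and without Amh-pa1-/- replicate 3, but not without any other (0.0511 to 0.108). *Dnajc7*, which binds both HSP70 and HSP90, fell by 0.18 ± 0.05 (SE, adjusted p = 0.0384 by edgeR), a call that was lost without any single library (0.0514 to 0.114). It lies opposite *Cnp*, whose counts were 690, 777 and 676 in Pa1F/F and 346, 292 and 170 in Amh-pa1-/- libraries. The calls of *Dnajc27* and *Dnajc7* were also lost with DESeq2's Wald test and with no filter on low counts. *Dnajc5*, the cysteine string protein of vesicles, did not differ by the test, at 2859 ± 107 and 2831 ± 73.3 (log2 interval -0.14 to 0.11).

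Members with a Gene Ontology term of the endoplasmic reticulum in the table numbered 12, all tested. Of these, 5 were higher in Amh-pa1-/- cells (41.7%, against 18.2% of all tested genes) and none was lower, with a median log2 fold change of 0.09. The called ones were *Hspa13*, *Dnaja1*, *Dnajb11*, *Dnajc10* and *Dnajc14*. The most counted members with this term, *Hspa5* and *Hsp90b1*, and *Dnajb9*, an inhibitor of the stress sensor IRE1, *Dnajb14*, *Dnajc1* and *Hspd1* did not pass the test. The term is an annotation, and *Dnaja1* and *Hspd1* also carried a mitochondrial term. *Dnajc3*, or P58IPK, a BiP partner that also inhibits the kinase PERK, was at 2054, 1862 and 2086 in Pa1F/F and 2215, 2181 and 2347 in Amh-pa1-/- libraries. The libraries did not overlap, and the log2 difference was 0.17 ± 0.06 (SE, adjusted p = 0.0779 by edgeR). *Dnajc1* went the other way, also without overlap, with a log2 difference of -0.17 ± 0.07 (SE, adjusted p = 0.0842 by edgeR).

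The ER stress element, bound by ATF6 with NF-Y, was searched on both strands as CCAAT followed by any 9 bases and CCACG. It was found in the windows of *Hspa5*, *Dnajc3* and *Hsp90b1*, 3 of 68 members (4.41%), and in those of 37 of 27025 genes (0.137%). These stretches are shown because all 3 genes carrying the element had a Gene Ontology term of the endoplasmic reticulum, as did 5 members that rose. The element is in capitals. The *Hspa5* stretch lies at chr2:34772020-34772048 on the plus strand, at positions -65 to -47 from the start, the *Dnajc3* stretch at chr14:118937822-118937850 on the plus strand, at positions -105 to -87, and 1 of 2 *Hsp90b1* stretches at chr10:86705633-86705661 on the minus strand, at positions -212 to -194.

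Hspa5: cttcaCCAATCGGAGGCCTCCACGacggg

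Dnajc3: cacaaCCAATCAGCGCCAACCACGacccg

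Hsp90b1: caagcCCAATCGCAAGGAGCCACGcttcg

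None of the 3 genes that carried the element passed the test, with log2 differences of -0.03, 0.17 and 0.02. Of the called members with an endoplasmic reticulum term, *Dnaja1*, *Dnajb11*, *Dnajc10* and *Dnajc14* did not show this element in their windows, and *Hspa13* had no window. The CCAAT box that the element contains was present by itself in the windows of 41.2% of the members and 41.1% of all genes.

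Members with a mitochondrial term numbered 17, all tested, with 3 higher (17.6%, against 18.2% of all tested genes) and 2 lower (11.8%, against 17.1%) and a median log2 fold change of -0.06. The higher ones were *Dnaja1*, *Dnajc19* and *Dnajc27* and the lower ones *Hspa2* and *Hspe1*. The other 12 did not pass the test, and lay between -0.65 (*Hspb7*) and 0.54 (*Hspa1b*) on the log2 scale. Among them *Hspa9*, *Hspd1*, *Dnaja3* and *Dnajc11* were at -0.06 to -0.17.

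Among the heat shock factors, *Hsf1*, the main stress-responsive factor, was at 467, 468 and 443 in Pa1F/F and 458, 534 and 439.9 in Amh-pa1-/- libraries. The genotypes overlapped, and the log2 difference was 0.06 (95% interval -0.17 to 0.28, adjusted p = 0.683 by edgeR). *Hsf2*, known from development and spermatogenesis, was at 385, 421 and 396 and at 446, 510.3 and 473, without overlap, and its log2 difference of 0.25 had an adjusted p of 0.0606 by edgeR. *Hsf4* (chr8:105269801-105275845), best known from the lens, was a minor factor here, with 38, 29 and 29 counts in Pa1F/F and 11, 9 and 5 counts in Amh-pa1-/- libraries. No Amh-pa1-/- library came near the control range, and the log2 fold change was -1.83 ± 0.32 (SE, 95% interval -2.59 to -1.08, adjusted p = 0.00548 by edgeR). *Hsf4* met the filter on low values through the Pa1F/F libraries, and it could not be tested when 10 counts were required in every library.

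The other 11 members were too low to test, with at most 11 counts in any library. They were *Hspa1l*, *Hspb2*, *Hspb3*, *Hspb9*, *Dnajb7*, *Dnajb8*, *Dnajc5g*, *Dnajc6*, *Hsf3*, *Hsf5* and *Hsf2bp*, the last a meiotic partner of HSF2. *Dnajc6*, or auxilin, which uncoats clathrin vesicles in neurons, had 2, 0 and 0 counts in Pa1F/F and 11, 9 and 7 counts in Amh-pa1-/- libraries. Summed over each genotype and scaled for depth, this was a ratio of 14.3 with a 95% counting interval from 3.60 to 124. Without a filter on low counts its adjusted p was 0.0119 by edgeR. The germ cell forms *Hspa1l*, *Dnajb7* and *Dnajb8* had 11, 12 and 1 counts over the Pa1F/F libraries and 4, 4 and 0 over the Amh-pa1-/- libraries, and the intervals of the first 2 ratios included 1.

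Levels between genes were compared as normalized count per kilobase of the canonical transcript. In Pa1F/F cells *Hspa8* stood first at 10363 ± 164 per kilobase and *Hsp90ab1* next at 9441 ± 115 (SD, n = 3). *Hspb1* at 3006 ± 1197 and *Hsp90aa1* at 2901 ± 44.5 followed and did not differ beyond their spread, and *Hspa5* at 2168 ± 153 and *Hsp90b1* at 1951 ± 101 came after them. In Amh-pa1-/- cells *Hspa8* and *Hsp90ab1* were at 9626 ± 65.1 and 9597 ± 759.7 and were indistinguishable by their spread. The most abundant DNAJ messages of Pa1F/F cells were *Dnaja2* at 1519 ± 86.1 and *Dnajc8* at 1473 ± 43.1, followed by *Dnajb11* at 1050.2 ± 24.8. In Amh-pa1-/- cells the same genes were at 1386 ± 156, 1345 ± 46.1 and 1322 ± 87.2 per kilobase and did not differ beyond their spread. The heat shock factors were low, with *Hsf2* at 112 ± 5.14 and *Hsf1* at 89.3 ± 2.76 per kilobase in Pa1F/F cells. *Hspa1b* at 48.4 ± 6.58 and *Hspa1a* at 17.4 ± 2.91, the strongly heat-inducible forms, were also far below *Hspa8*.

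**Figure D3:**
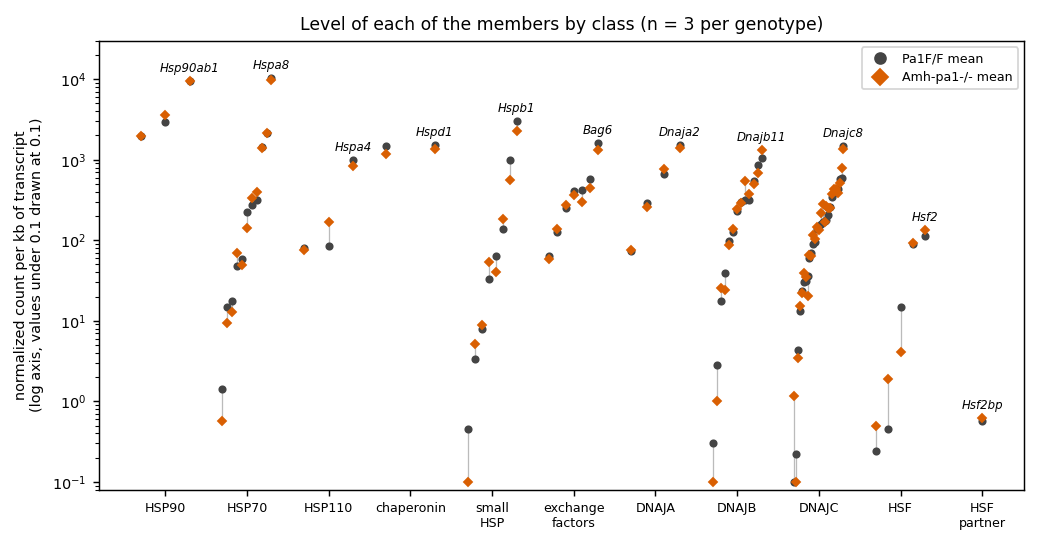
Mean normalized count per kilobase of transcript (y axis, log scale) of each of the 84 members by class (x axis), with circles for Pa1F/F and diamonds for Amh-pa1-/- cells, 3 libraries each, joined by a line. Means under 0.1 are drawn at 0.1 and the most abundant member of each class is named, from *Hspa8* at 10363 down to *Hsf2bp* at under 1 per kilobase in Pa1F/F cells.

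Other genes of the folding machinery, were taken from lists that hold 75 genes in all. Of 71 tested, 12 were higher and 10 were lower, together 31.0% (35.3% of all tested genes), with a median log2 fold change of -0.02. The count of 22 fell to between 10 and 13 when Pa1F/F replicate 1 or 3 or Amh-pa1-/- replicate 1 or 2 was left out. Among 17 tested cochaperones of HSP90, none was higher and 3 were lower (17.6%, against 17.1% of all tested genes). *Fkbp5*, a steroid receptor cochaperone induced by glucocorticoid and androgen, was at 4981, 5046 and 4985 in Pa1F/F and 2168, 2005 and 2056 in Amh-pa1-/- libraries. The genotypes were far apart, and the log2 fold change was -1.27 ± 0.05 (SE, adjusted p = 5.24e-05 by edgeR). Its relative *Fkbp4* was at 3088, 1981 and 2946 and at 1501, 1489 and 953, with a log2 fold change of -1.02 ± 0.23 (adjusted p = 0.0137 by edgeR, or 0.0552 and 0.0521 without Pa1F/F replicate 1 or 3). *Unc45a* also fell, by 0.41 on the log2 scale (adjusted p = 0.00325 by edgeR), while *Stip1*, *Cdc37*, *Ptges3*, *Ahsa1* and *Stub1*, the general partners of HSP90, did not pass the test.

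Of 8 other partners of HSP70, *Sec63*, a J-domain protein of the translocon, rose by 0.38 on the log2 scale, and *Hyou1*, the endoplasmic reticulum exchange factor, fell by 0.25 (adjusted p = 0.00562 and 0.0154 by edgeR). In the list of 15 endoplasmic reticulum folding genes, 8 were called (53.3%, against 35.3% of all tested genes, a difference that was not tested), of which 5 were higher (*Sdf2l1*, *Uggt1*, *Creld2*, *Canx* and *Pdia6*, by 0.27 to 0.59) and 3 were lower (*Calr*, *P4hb* and *Ppib*, at -0.39 to -0.29). Of 9 genes of the unfolded protein response, *Xbp1*, its transcription factor, fell from 2072 ± 195 to 1255 ± 150.4, by 0.72 ± 0.11 on the log2 scale (SE, adjusted p = 0.00290 by edgeR). *Atf6b* and *Edem1* rose by 0.29 each, and *Atf4*, *Ddit3* and *Herpud1* did not pass the test. Against the same background of 18.2% higher and 17.1% lower, the cytosolic chaperonin TRiC had 1 of 8 tested subunits higher (*Tcp1*, 0.18) and 1 lower (*Cct4*, -0.23), prefoldin had 2 of 6 higher (*Vbp1* and *Pfdn6*), and mitochondrial quality control had 1 of 7 lower (*Afg3l2*, -0.21). The most counted genes of these lists, *Cct2*, *Pfdn5* and *Lonp1*, differed by 0.03, 0.11 and -0.27 without passing the test. *Cryab*, a small heat shock protein by structure, was at 1071, 1081 and 1226 in Pa1F/F and 2108, 2066 and 2068 in Amh-pa1-/- libraries, a log2 fold change of 0.89 ± 0.07 (SE, adjusted p = 0.000257 by edgeR).

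**Figure D4:**
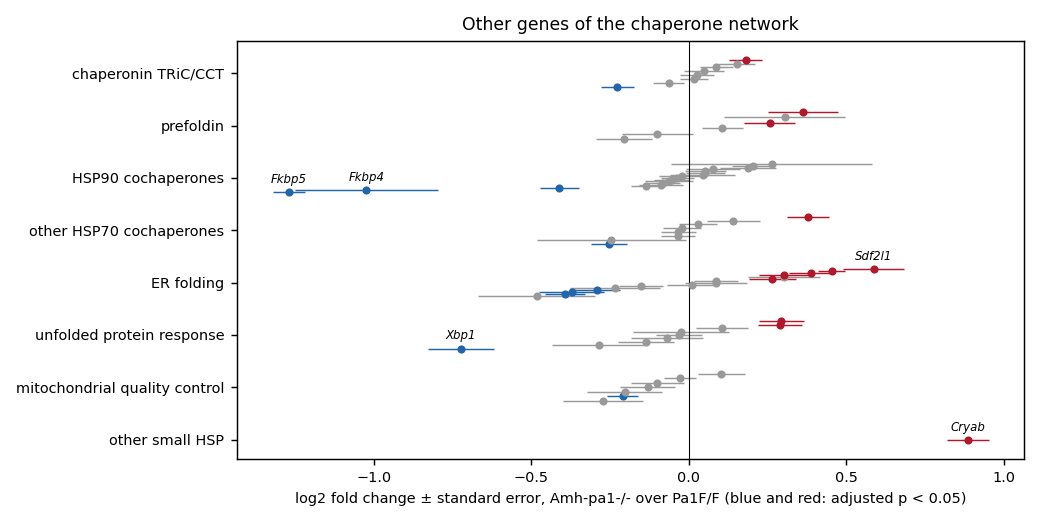
Log2 fold change of Amh-pa1-/- over Pa1F/F with its standard error (x axis) for the 71 tested genes of 8 further chaperone lists (y axis). Red and blue points passed an adjusted p under 0.05, with *Cryab* farthest to the right at 0.89 and *Fkbp5* farthest to the left at -1.27.

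Several lists of cell type markers held genes that passed the test in the same libraries, and their part in the values of the members was not tested. Their counts stand against 18.2% higher and 17.1% lower among all tested genes, and whether any list differed from these shares was not tested. Of 13 tested Sertoli cell markers, 1 was higher (7.69%) and 5 were lower (38.5%), and their sum lay between 245690.0 and 249928 normalized counts in Pa1F/F and between 150411 and 190258 in Amh-pa1-/- libraries, most of it *Clu*. Leydig cell markers summed to 12325 to 13714 and to 2607 to 4897 (3 of 4 tested lower, with *Cyp17a1* and *Insl3* at 3 counts or fewer in every library), and macrophage markers to 1817 to 2009 and to 1106 to 1365 (6 of 8 lower). *Mrc1*, the most counted macrophage marker, had a higher mean in Amh-pa1-/- cells without passing, at 984 ± 38.8 and 1109 ± 155 (SD, n = 3 each). Of the 6 lower ones, *Adgre1*, *C1qc* and *Tyrobp* met the filter on low values through the Pa1F/F libraries. Peritubular myoid markers summed to 5302 to 6216 and to 16080 to 23129.6, most of it *Acta2*, with 2 of 5 higher (*Acta2* and *Mylk*). Endothelial markers had 1 of 4 higher and 2 lower (1707 to 1793 and 939 to 1487, most of it *Cdh5*). The higher one, *Vwf*, met the filter on low values through the Amh-pa1-/- libraries. Spermatogonia markers had 3 of 4 tested lower. The sum of the latter list, 2842 to 3262 and 1536 to 2940.3, was nearly all *Uchl1*, which did not pass and was lowest in Amh-pa1-/- replicate 3 (1457), with *Zbtb16*, *Stra8*, *Sall4* and *Lin28a* at 3 counts or fewer. Spermatid markers had none of 2 called (1544 to 1758 and 1585 to 1742, nearly all *Odf2*, with *Prm1*, *Tnp2*, *Acrv1*, *Acr* and *Tssk1* at 3 counts or fewer). Immediate early genes of tissue dissociation had 3 of 10 higher and summed to 9731 to 10242 and to 12597 to 31192.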

How the data were processed

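The authors aligned reads from NEBNext Ultra libraries to GRCm38 with HISAT2 (2.1.0), counted them per gene with HTSeq (0.6.0) and deposited whole-number counts without normalization. A strand setting for the counting is not given in the sources used here. The table also holds the authors' own comparison (means, fold changes and p-values), which was not used. Columns of other samples numbered 0. The 3 libraries per genotype were taken from the labels.

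Counts were filtered (edgeR filterByExpr, minimum count 10 and minimum total 15), scaled by TMM, and compared by the quasi-likelihood F-test of edgeR 4.0.16 (R 4.3.3, limma 3.58.1) with Benjamini-Hochberg adjustment over 14919 genes. The study's methods name DEGseq, which was not used here. Steps were tested on simulated data. A floor of 3 counts stood at 2.72 to 3.38 normalized counts. Reads carry no molecular identifiers, so counting intervals (exact, 95%) cover counting error only. An exact permutation test of 3 against 3 libraries cannot give a two-sided p below 0.1 and was not printed. Same-numbered libraries were not paired. Transcript lengths came from the GENCODE annotation of a later assembly, matched by gene identifier for all 84 members. Promoter windows came from RefSeq, and protein sequences were not used here.

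Members and lists were chosen with earlier results of these data known. By rule the text names called members that changed by 1 or more on the log2 scale, the 10 with the smallest adjusted p, the 3 most counted of each class and all tested HSF and BAG genes (35 in all), and in the wider lists the called genes of that fold and the most counted. A single gene of the wider lists was left out and is not reported here. The lists were TRiC, prefoldin, HSP90 and other HSP70 cochaperones, endoplasmic reticulum folding, unfolded protein response, mitochondrial quality control, other small heat shock proteins and the markers given above. Alternatives were DESeq2's size factors and Wald test (1.42.0), library size alone, limma-voom, other filters, a replicate block, leaving out each library and summing the close pairs.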

Additional observations from a re-analysis of the deposited data

How the results depend on the processing

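Of the 26 called members, 15 kept their call in all 6 fits without 1 library and in the other scalings, tests, filters and the replicate block, except that *Hsf4* could not be tested with the filter of 10 counts in every library. With summed close pairs *Hspa4l*, *Dnajb4*, *Hspb8* and *Dnajc10* kept it. No called member changed direction in any alternative. Leaving out 1 library gave 15 (without Pa1F/F replicate 1) to 30 (without Amh-pa1-/- replicate 3) called members, 10 to 15 higher, 5 to 15 lower, and 10 (without Pa1F/F replicate 3) to 28 called genes in the wider lists. Over all genes the share called then moved between 22.7% and 43.1%. With the close pairs of replicates summed, leaving 2 libraries per genotype, 4 members passed, 3 higher and 1 lower, and 3 genes of the wider lists, while 8.66% of all genes passed. When a change of 1 or more on the log2 scale was also required, 1 member passed. Other scalings and tests gave 24 to 26 members. Without a filter 24 members passed, 23 of them among the 26, and the other was *Dnajc6*, while 18.4% of all genes with any count passed.

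Same-numbered libraries deviated together with correlations of 0.108, -0.164 and -0.179, so the numbers do not pair the samples, and no library correlated best with its own number. Pa1F/F replicates 1 and 3 correlated positively with Amh-pa1-/- replicates 1 and 2 (0.108 to 0.15), and Pa1F/F replicate 2 with Amh-pa1-/- replicate 3 (0.214). All other combinations were negative (-0.141 to -0.179). What the libraries on each side of this split had in common was not tested. With the replicate block 19 members passed, all among the 26, and 11 genes of the wider lists, against 25.5% of all genes. The 11 untested members had at most 11 counts in any library, against a floor of 3 counts.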
